A study of Mus musculus with 3 samples.

Results

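The genes of mucins and trefoil factors, with Agr2, were followed in 3 segments of the embryonic mouse gut. The members are the 9 rows of the deposited table named Muc1, Muc2, Muc4, Muc13, Muc20, Tff1, Tff2, Tff3 and Agr2, out of 33762 genes in all. They were picked by name, and all 9 were found. Polyadenylated RNA came from wild-type embryos at E13.5, of the strain given as Bl6/C57, with no treatment named for any group. The presumptive ileum was 1 of 3 equal portions of the small intestine, and the caecum and the colon were separate samples. Each segment is 1 sample, and the labels do not say how many embryos gave it, so no difference here has a replicate check and no p-value can be given.

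Mucins are long proteins whose repeated serine and threonine stretches carry dense O-linked sugars. Muc2 is the secreted, gel-forming mucin of the intestine, while Muc1, Muc4, Muc13 and Muc20 are anchored in the cell membrane. Trefoil factors are small secreted peptides held together by disulfide bonds, which goblet and gastric mucous cells release with mucus. Agr2 is a protein disulfide isomerase of the endoplasmic reticulum that is needed to produce intestinal mucin. In the mature gut Muc2, Tff3 and Agr2 mark goblet cells, while Tff1 and Tff2 are best known from the stomach.

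The libraries held 50079617 counts for the ileum, 64439701 for the caecum and 50772855 for the colon. In these libraries 7 of the 9 genes reached 20 counts in at least 1 segment, the minimum for a comparison, and Tff2 and Muc20 did not. Levels are given as counts and as the authors' RPKM, which is scaled to gene length and depth and so allows different genes to be compared. Folds are ratios of counts scaled by TMM, and brackets give exact 95% intervals, which cover counting error only. A gene is called apart at 2-fold or more. Whole gut wall was sampled, so fewer epithelial cells and less RNA per cell cannot be told apart.

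Muc13, a membrane mucin of the intestinal surface, was the most abundant of the 9 genes in the ileum and caecum and close to absent from the colon. It had 1518 counts in the ileum, 1010 in the caecum and 16 in the colon, or 9.98, 5.16 and 0.104 RPKM. Values in threes are in this order from here on, ileum, caecum and colon. The ileum was highest, the caecum lower, and the colon far below both. Muc13 in the ileum exceeded the caecum by 1.95-fold (1.80 to 2.12), just short of 2-fold. The caecum exceeded the colon by 49.9-fold (30.6 to 87.7) and the ileum exceeded the colon by 97.6-fold (59.9 to 171). All 3 intervals exclude equal levels. Its RPKM stood above that of 70.5% of detected genes in the ileum, 58.3% in the caecum and 14.7% in the colon.

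The transcript of Muc13 (ENSMUSG00000022824) spans chromosome 16, 33794123 to 33820020, on the plus strand of mm9, and no other gene of the table overlaps it. RefSeq gives it a pair of start sites in GRCm38.p6. The bases before each start are shown because Muc13 is the gene with the widest difference between segments, up to the point where an exon annotated in GENCODE begins. Capitals mark motif letters, CATAAA for TTTATG, the core bound by CDX factors, and TGGACTTTG for CAAAGTCCA, a motif of HNF4 factors, both read on the other strand.
Muc13 upstream start, chr16:33793787-33794036, plus strand: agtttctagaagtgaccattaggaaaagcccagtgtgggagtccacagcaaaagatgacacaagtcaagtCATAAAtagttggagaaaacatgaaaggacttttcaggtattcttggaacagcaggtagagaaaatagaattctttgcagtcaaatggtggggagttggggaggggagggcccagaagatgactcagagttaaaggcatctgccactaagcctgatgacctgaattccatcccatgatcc
Muc13 downstream start, chr16:33794239-33794366, plus strand: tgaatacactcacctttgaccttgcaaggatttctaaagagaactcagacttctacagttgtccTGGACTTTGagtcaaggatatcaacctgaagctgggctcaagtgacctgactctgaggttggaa
The CDX letters begin 180 bases before the upstream start and the HNF4 letters 186 bases before the downstream start. On either strand, TTTATG is in 11.9% and CAAAGTCCA in 0.475% of the 32851 RefSeq windows of this length. These are matches of letters, and binding was not measured. Of the factors, Hnf4a had 16.1, 9.81 and 17.6 RPKM, Hnf4g 5.73, 2.27 and 1.60, Cdx2 17.5, 18.8 and 9.87 and Cdx1 2.01, 0.306 and 1.70. Hnf4g had the ileum 3.64-fold (3.23 to 4.11) and the caecum 1.43-fold (1.25 to 1.63) above the colon. Hnf4a was highest in the colon and Cdx2 in the caecum, and Cdx1 was lowest in the caecum. The part of these factors in the Muc13 difference was not tested.

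**Figure D1:**
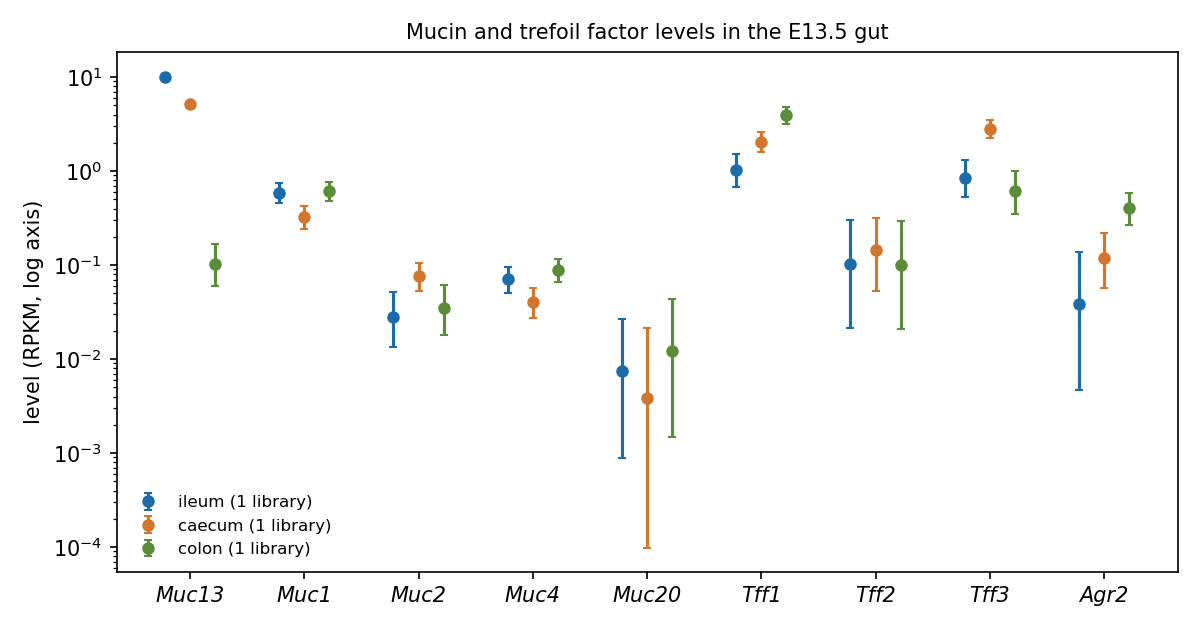
Level of each gene in RPKM on a log axis, with 1 point per segment (1 library each) and bars for the exact 95% Poisson interval of the count, scaled to RPKM. Muc13 ranges from 9.98 RPKM in the ileum to 0.104 in the colon, while Tff1 is highest in the colon and Tff3 in the caecum.

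Epithelial RNA was detected in all segments. The 21 pan-epithelial genes all passed the minimum. In colon against ileum 19 of them were within 2-fold, as were 16114 of the 17579 genes tested. The pan-epithelial genes had a median log2 ratio of 0.15 and a range from -0.84 to 2.47. They went both ways, with Krt19, a keratin, 2.16-fold above the ileum in the colon and Elf3, an epithelial transcription factor, 1.79-fold below it. Epcam, an adhesion molecule of epithelial cells, had 5108, 5095 and 3761 counts, and the RPKM of Muc13 stood at 13.3% of the Epcam level in the caecum and 0.286% in the colon. Scaled to the median of the pan-epithelial genes, Muc13 exceeded its colon level by 108-fold in the ileum and 50.4-fold in the caecum. The same scaling put the ileum 2.01-fold above the caecum, past the limit that TMM scaling left it under. Smooth muscle genes also differed between segments, with the ileum highest. In colon against ileum 3 of 9 mesenchymal and smooth muscle genes were higher in the ileum (4.29% of all genes). These were Myh11 (3.12-fold), Actg2 (2.22-fold) and Cnn1 (2.15-fold). In caecum against ileum 4 of the 9 were higher in the ileum (2.52% of all genes). The summed level of the 9 was 1671, 1039 and 1242 RPKM, and its part in the Muc13 difference was not tested.

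Genes of the intestinal epithelium did not all share this low colon level. Between colon and ileum, 8 of 16 intestinal genes with enough counts were higher in the ileum by 2-fold or more (4.29% of all genes), 1 was higher in the colon (4.04% of all genes), and 7 were within 2-fold. Lgr5, a receptor of stem cells, and Apob, an apolipoprotein, had 855 and 8 counts and 3414 and 38 counts in the ileum and colon. Vil1, a brush border protein, had 8.99 and 6.45 RPKM, and Lgals4, a galectin of intestinal epithelium, ran the other way at 21.8 and 52.4 RPKM. Among 12534 named genes with 100 counts or more, the profile closest to that of Muc13 over the 3 segments was that of Apob. The distance between the centred log2 levels was 0.32 for Apob, 0.69 for Adamdec1 and 1.39 for Cyp2c40. Adamdec1, a disintegrin-like protease, had 4156, 2673 and 77 counts, and Cyp2c40, a cytochrome P450, had 207, 186 and 8. With only 3 segments many genes can come close by such a measure, and Cyp2c40 belongs to a family of near-identical genes.

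**Figure D2:**
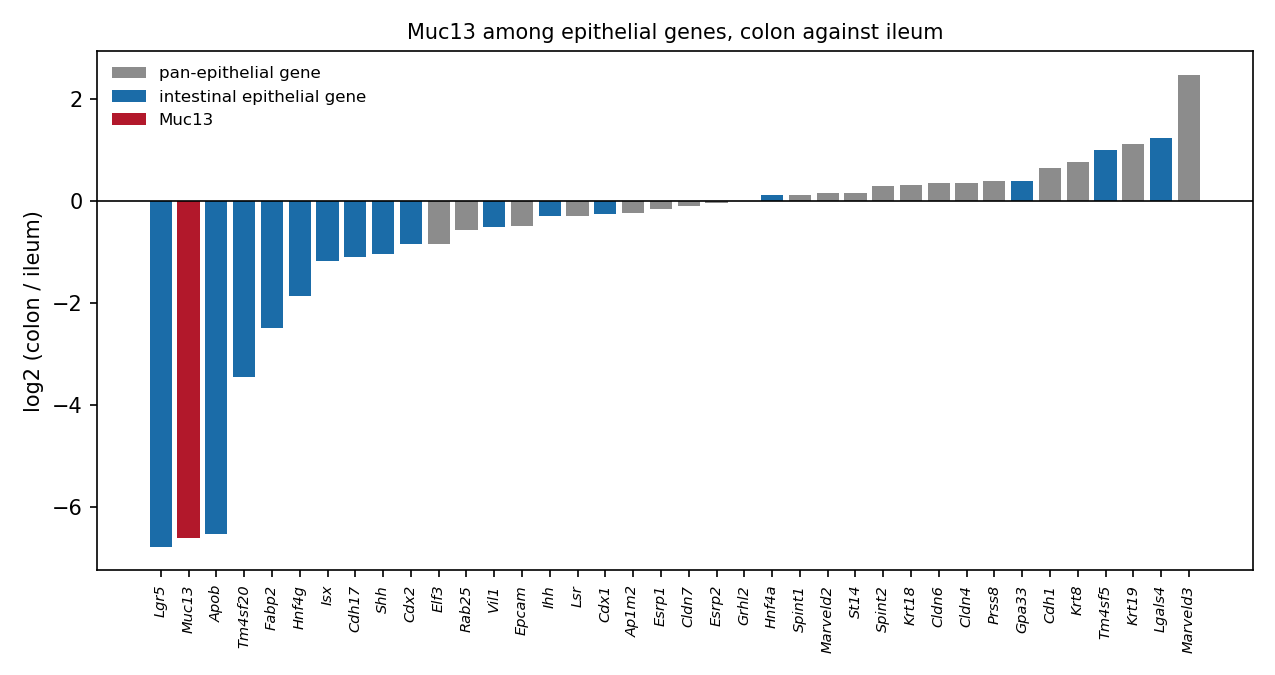
Log2 ratio of colon to ileum for Muc13 (red), pan-epithelial genes (grey) and intestinal epithelial genes (blue) that reached 20 counts in the higher of the 2 libraries, 1 library per segment, in rising order. Muc13 at -6.61 stands with Lgr5 and Apob at the low end, while most pan-epithelial genes lie near 0.

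The other membrane mucins were scarce and differed less between segments than Muc13. Muc1, a signalling mucin of most glandular epithelia, had 68, 49 and 74 counts, or 0.583, 0.324 and 0.617 RPKM. The caecum was lowest, 1.81-fold (1.23 to 2.66) under the ileum and 1.91-fold (1.31 to 2.80) under the colon. Ileum and colon could not be told apart, at a ratio of 1.06 (0.751 to 1.49). Muc13 was thus at 17.1, 15.9 and 0.168 times the RPKM of Muc1, so in the colon Muc1 was the more abundant of the pair.

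Muc4, a large mucin that can bind the receptor ErbB2, repeated the shape of Muc1 at lower levels. It had 42, 30 and 53 counts, or 0.0705, 0.0403 and 0.0888 RPKM. The caecum was 2.23-fold (1.40 to 3.62) under the colon and 1.82-fold (1.11 to 3.01) under the ileum, while the colon and ileum were at a ratio of 1.23 (0.803 to 1.88). Muc20, its neighbour on the other strand, had 2, 1 and 2 counts, which is too few for any comparison. The spans of Muc4 (chromosome 16, 32735972 to 32782477, plus strand) and Muc20 (chromosome 16, 32777505 to 32797521, minus strand) share 4973 bases, and whether reads there were assigned by strand is not given in the sources used here. Muc1 lies at chromosome 3, 89032979 to 89037303, on the plus strand.

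Muc2, the gel-forming mucin of goblet cells, was barely detected, and its highest level was in the caecum. It had 10, 34 and 12 counts, or 0.0284, 0.0760 and 0.0350 RPKM. Even in the caecum only 13.2% of detected genes had a lower RPKM. The caecum was 2.61-fold (1.26 to 5.93) above the ileum and 2.24-fold (1.13 to 4.75) above the colon, and both intervals exclude equal levels but reach well below 2-fold. With 1 of the 2 deposited columns alone, caecum against colon came to 1.64-fold for Muc2 and was no longer apart. With the other column alone its log2 ratio was 1.59, where both columns gave 1.16. Ileum and colon, both under the minimum of 20 counts, were at a ratio of 1.17 (0.462 to 3.01). Muc2 lies at chromosome 7, 148876268 to 148940595, on the plus strand.

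The 250 bases before the Muc2 start of RefSeq in GRCm38.p6 are shown as those of the main goblet cell mucin. Capitals mark AGATAA, the letters read by GATA factors, at 169 and 159 bases before the start, and TATAAA at 174 bases. The last letter of TATAAA is the opening letter of the AGATAA at 169 bases.
Muc2, chr7:141690090-141690339, plus strand: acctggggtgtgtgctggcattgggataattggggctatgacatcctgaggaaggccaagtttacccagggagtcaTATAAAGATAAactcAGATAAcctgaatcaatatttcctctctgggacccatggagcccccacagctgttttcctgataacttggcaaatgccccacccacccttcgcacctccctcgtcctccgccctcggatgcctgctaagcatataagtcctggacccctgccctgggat
On either strand, AGATAA is in 11.2% and TATAAA in 13.6% of all RefSeq windows. Of the 9 members, 6 have a window in the RefSeq table, and the trefoil genes do not.

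The trefoil genes lie side by side on chromosome 17, on the minus strand, within 39.7 kb (31262251 to 31301998), and Tff1 and Tff3 peaked in different segments. Tff1 (31298341 to 31301998) had 25, 64 and 96 counts, or 1.04, 2.06 and 3.96 RPKM. Its level was lowest in the ileum, intermediate in the caecum and highest in the colon. The colon was 3.73-fold (2.38 to 6.05) above the ileum and 1.90-fold (1.37 to 2.64) above the caecum, and the caecum 1.97-fold (1.22 to 3.26) above the ileum. All 3 intervals exclude equal levels, but only that of colon against ileum lies wholly beyond 2-fold.

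Tff3 (31262251 to 31266591), the trefoil factor of goblet cells, was instead highest in the caecum. It had 21, 90 and 16 counts, or 0.851, 2.82 and 0.619 RPKM. The caecum was 3.29-fold (2.03 to 5.58) above the ileum and 4.45-fold (2.60 to 8.12) above the colon, and both intervals lie beyond 2-fold. Ileum and colon could not be told apart, at a ratio of ileum to colon of 1.35 (0.671 to 2.77). The summed level of 10 enteroendocrine genes was highest in the caecum as well, at 4.74, 7.22 and 2.85 RPKM. Cck, a gut hormone, had 25, 148 and 4 counts, or 0.589, 2.72 and 0.0812 RPKM. In caecum against ileum it was the only 1 of 4 with enough counts to be 2-fold higher in the caecum (4.59% of all genes). Chgb and Chga were 1.21-fold and 1.09-fold higher in the caecum, and Ghrl 1.01-fold higher in the ileum. In caecum against colon 2 of 4, Cck and Chgb, were higher in the caecum (5.11% of all genes). Sst had 0, 0 and 19 counts, and Neurog3 and Neurod1 were at 0 in all libraries. The part of enteroendocrine genes in the Tff3 difference was not tested. Tff2 (31277994 to 31281227), between its neighbours, had 3, 6 and 3 counts and was not compared. The ratio of Tff1 to Tff3, per length, was therefore 1.23 in the ileum, 0.732 in the caecum and 6.39 in the colon.

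Agr2, the disulfide isomerase, was most abundant in the colon and close to absent from the ileum. It had 2, 10 and 26 counts, or 0.0386, 0.12 and 0.404 RPKM. The order is that of Tff1, with the colon above the caecum and the caecum above the ileum. The colon was 3.29-fold (1.53 to 7.64) above the caecum and 12.6-fold (3.16 to 110) above the ileum, where the ileum value rests on 2 counts. Caecum and ileum, under the minimum, were at a ratio of 3.84 (0.819 to 36.1). Agr3, its close relative on the same chromosome, had 0 counts in all 3 libraries, and a count of 0 allows up to 3. Agr2 lies at chromosome 12, 36719494 to 36730674, on the plus strand.

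The bases before the Agr2 start in GRCm38.p6 are shown because they hold the CDX letters, as do those before the upstream start of Muc13. The part of these letters in the levels was not tested. Capitals mark CATAAA, the reverse complement of TTTATG, 47 bases before the RefSeq start. The bases shown stop where an exon annotated in GENCODE begins, short of that start. On either strand, TTTATG is in 11.9% of all RefSeq windows, and binding was not measured.
Agr2, chr12:35992675-35992906, plus strand: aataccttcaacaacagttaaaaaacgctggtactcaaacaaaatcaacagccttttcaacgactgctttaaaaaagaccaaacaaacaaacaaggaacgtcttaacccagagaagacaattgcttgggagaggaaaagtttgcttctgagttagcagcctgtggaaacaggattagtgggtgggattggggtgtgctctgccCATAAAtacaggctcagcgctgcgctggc

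**Figure D3:**
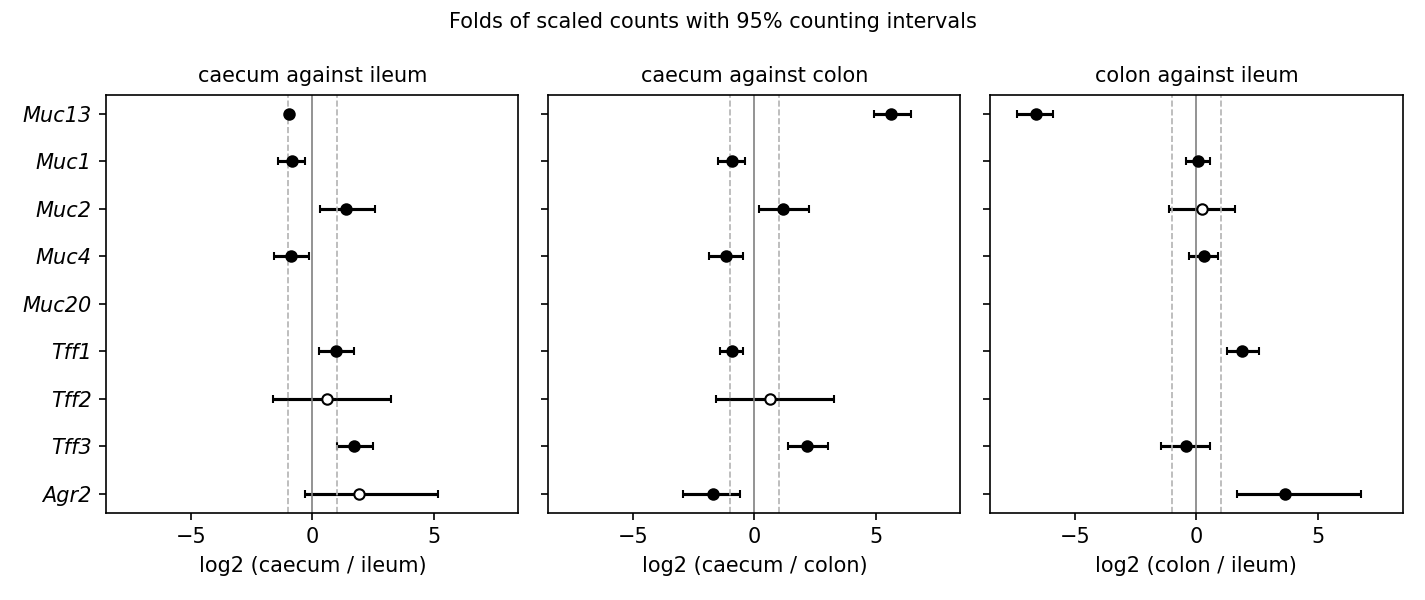
Log2 ratio of scaled counts for each gene in the 3 comparisons (1 library per segment), with exact 95% counting intervals. Open points are under the minimum of 20 counts, dashed lines mark 2-fold, and pairs with 3 counts or fewer in both libraries are not drawn. Muc13 lies far from the others against the colon, and Tff3 and Muc2 lie on the caecum side of both caecum comparisons.

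The family was then counted against all genes tested. In caecum against ileum 2 of 6 genes with enough counts, Muc2 and Tff3, were higher in the caecum by 2-fold or more, where 4.59% of all genes tested were, and 0 were higher in the ileum, against 2.52% of all genes. In caecum against colon 3 of 7, Muc2, Muc13 and Tff3, were higher in the caecum (5.11% of all genes) and 2, Muc4 and Agr2, were higher in the colon (2.74% of all genes). In colon against ileum 2 of 6, Tff1 and Agr2, were higher in the colon (4.04% of all genes) and 1, Muc13, was higher in the ileum (4.29% of all genes). The medians of the log2 ratios were 0.06, -0.92 and 0.19 for the members with enough counts and 0.01, 0.01 and -0.00 for all genes, in the same order. The 3 comparisons share their libraries, and with so few genes these counts describe the list and no more.

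The composition of the family differed too. The summed level of the 9 genes was 12.7, 10.8 and 5.94 RPKM. Muc13 made up 78.5%, 48.0% and 1.75% of that sum, Tff1 8.22%, 19.2% and 66.6%, and Tff3 6.70%, 26.2% and 10.4%. Agr2 and Muc1 made up 6.81% and 10.4% in the colon and 0.304% and 4.59% in the ileum. The order of levels per length was Muc13, Tff1, Tff3 and Muc1 in the ileum, Muc13, Tff3, Tff1 and Muc1 in the caecum, and Tff1, Tff3, Muc1 and Agr2 in the colon. The counting intervals of Tff1, Tff3 and Muc1 overlap in the ileum, those of Tff3 and Tff1 in the caecum, and those of Tff3, Muc1 and Agr2 in the colon.

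Of the other mucins, Muc6, a gel-forming mucin known from the stomach, had the order of Tff1 and Agr2. It had 38, 114 and 172 counts, or 0.0878, 0.205 and 0.391 RPKM, and its colon level was 4.40-fold (3.08 to 6.43) that of the ileum. In colon against ileum 1 of 6 other mucins and sialomucins with enough counts was higher in the colon (4.04% of all genes). In the ileum 0 were higher (4.29% of all genes). Muc16, a membrane mucin of serosal and mucosal surfaces, had 172, 254 and 232 counts, or 3.31, 3.82 and 4.41 RPKM, all within 2-fold. Muc5ac, the stomach surface mucin, Muc5b and Muc3 had at most 6 counts in any library, and Muc15 had 0 in all. Cd164, a sialomucin of many cell types, had 96.1, 79.3 and 93.3 RPKM. Of the 15 names on this list, 11 were found in the table.

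The enzymes that build mucin sugars differed in both directions. Of 27 entries with enough counts, 5 were higher in the colon in colon against ileum (4.04% of all genes), 4 in the ileum (4.29% of all genes), and 18 were within 2-fold. Galnt1 and Galnt2, which start O-linked chains, had 39.6, 34.3 and 38.5 RPKM and 31.4, 30.1 and 31.8 RPKM. Galnt5, of the same family, had 19, 192 and 343 counts, and the colon exceeded the ileum by 17.5-fold (11.1 to 29.5), with the caecum in between. Gcnt1, which makes the core 2 branch, had 425, 470 and 1140 counts, a ratio of colon to ileum of 2.61 (2.33 to 2.92). B4galnt2, which caps intestinal glycans, had 524, 348 and 109 counts, in the order of Muc13, with the ileum 4.95-fold (4.02 to 6.14) above the colon. In caecum against ileum 4 were higher in the caecum (4.59% of all genes) and 1 in the ileum (2.52%), and in caecum against colon 3 were higher in the caecum (5.11%) and 4 in the colon (2.74%). B3gnt6 and St6galnac1, enzymes of mature colonic mucin sugars, had 0 counts in all libraries.

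Of the 10 regulators of mucus genes found in the table, Atoh1, the factor that commits cells to the secretory lineage, was at the edge of detection. It was listed at 0 RPKM in the ileum and caecum and 0.00472 in the colon, where its averaged count rounds to 0. Spdef, which drives goblet cell maturation, had 40, 116 and 31 counts and, like Tff3 and Muc2, was highest in the caecum. It was 2.23-fold (1.54 to 3.28) above the ileum and 2.96-fold (1.98 to 4.55) above the colon. Foxa2, a forkhead factor of endoderm, had 68, 254 and 412 counts and, like Tff1 and Agr2, was highest in the colon, 5.89-fold (4.55 to 7.73) above the ileum. Foxa1, Foxa3 and Cdx2, of the same list, ran the other way, with the ileum 1.62-fold, 1.60-fold and 1.80-fold above the colon. Klf4 had 474, 797 and 1014 counts, a ratio of colon to ileum of 2.08 (1.86 to 2.32), and Xbp1, a factor of the unfolded protein response, had 55.2, 52.4 and 53.6 RPKM. Of the 9 regulators with enough counts, 2 were higher in the caecum (4.59% of all genes) and 0 in the ileum (2.52%) in caecum against ileum. In caecum against colon 1 was higher in the caecum (5.11%) and 1 in the colon (2.74%), and in colon against ileum 2 were higher in the colon (4.04%) and 0 in the ileum (4.29%).

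Of 16 listed products of goblet cells, Zg16, Retnlb, Capn9 and Agr3, 4 in all, had 0 counts in every library, and 9 reached 20 counts in colon against ileum. Of those 9, 2 were higher in the colon (4.04% of all genes), 1 in the ileum (4.29% of all genes) and 6 within 2-fold. Ern2, the stress sensor of mucous cells, had 2, 4 and 34 counts, and the colon exceeded the ileum by 16.5-fold (4.24 to 142). The gene listed as Clca3, named Clca1 today and secreted by goblet cells, had 2, 0 and 22 counts. The gene listed as Clca1 is Clca3a1 today and is another family member, at 680, 91 and 230 counts. Fcgbp, a mucus protein that binds Tff3, had 32, 52 and 22 counts, and Bcas1 had 81, 283 and 137, a ratio of caecum to ileum of 2.69 (2.09 to 3.48). In caecum against ileum 1 of 7 was higher in the caecum (4.59% of all genes) and 1 in the ileum (2.52%). In caecum against colon 0 of 9 were higher in the caecum (5.11% of all genes) and 3 in the colon (2.74%). The gene listed as Clca1, counted here though another family member, was the 1 higher in the ileum in both comparisons with the ileum. It was also 1 of these 3 higher in the colon.

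General folding enzymes did not share the profile of Agr2. All 18 disulfide isomerases and folding genes were within 2-fold in colon against ileum, as were 16114 of the 17579 genes tested. Among the 18 were P4hb at 151, 137 and 151 RPKM and Pdia3 at 187, 170 and 165 RPKM. Erp27, a redox-inactive member of the family, was the exception in the caecum, with 60, 4 and 32 counts. It was the only gene of that list past 2-fold in either caecum comparison, higher in the ileum (2.52% of all genes) and in the colon (2.74%).

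**Figure D4:**
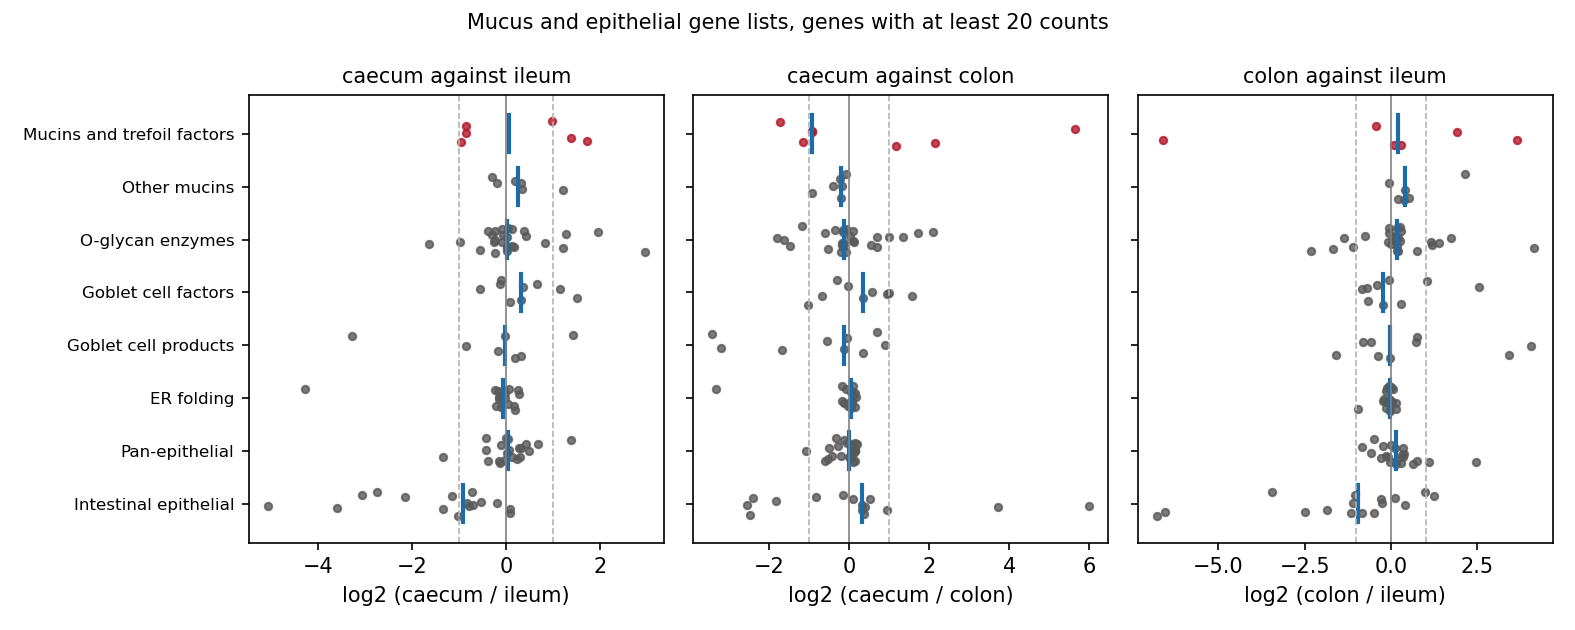
Log2 ratio of each gene that reached 20 counts in the higher of the 2 libraries, by list and comparison (1 library per segment, points spread vertically at random). Red points are the mucins and trefoil factors, blue bars the list medians and dashed lines 2-fold. Most folding genes and pan-epithelial genes lie close to 0. Among the exceptions are Erp27, 19.5-fold lower in the caecum than the ileum, and Marveld3, 5.54-fold higher in the colon than the ileum. The mucins and trefoil factors reach to -6.61 in colon against ileum and 5.64 in caecum against colon.

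Markers of other epithelia are given because Tff1, Agr2 and Muc6 are made outside the intestine as well. The 10 urothelial and stratified markers summed to 8.48, 12.2 and 21.2 RPKM, in the order of Tff1 and Agr2. Of 4 with enough counts, Upk1a, Krt15 and Krt14 were above the ileum in the colon by 2-fold or more (4.04% of all genes). Upk1b was not, and Krt5, Upk2 and Upk3a had at most 6 counts in any library. The 9 stomach markers summed to 5.07, 6.62 and 4.81 RPKM, most of it Sox2 at 4.64, 6.14 and 4.15, a gene that enteric neural cells also use. In colon against ileum 3 stomach markers had enough counts, and 1 of them, Sox2, was within 2-fold. Ctse (14, 29 and 34 counts) was higher in the colon (4.04% of all genes). Cldn18 (29, 8 and 1 counts) was higher in the ileum (4.29% of all genes). Gkn2, the gastrokine that pairs with Tff1, had 0.0128, 0 and 0.152 RPKM. Of the 7 pancreatic markers, Ptf1a and Ins2 had 0 counts in all libraries. The part of such cells in the levels of Tff1 and Agr2 was not tested.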

How the data were processed

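RNA-seq of 3 gut segments was analysed, with 1 sample per group. The deposited table holds counts in steps of 0.5, taken here to be expected counts. It also holds RPKM per the file headers, values that the authors divided by gene length and depth. Bowtie 0.12.7, the build mm9 and DESeq are named in the submitters' processing notes. The counting program, annotation and use of strand are not given in the sources used here. Each segment has 2 columns, which the headers call replicates. Whether they are sequencing runs or other counts of 1 library is not given in the sources used here. If they are separate runs, the reads behind each value number the sum of the columns, and the averaged counts, the minimum and the interval widths understate the depth. They differed by 0.422, 0.449 and 0.438 times the counting variance in ileum, caecum and colon and were averaged as 1 library, then rounded to whole counts, with ties going to the even number.

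Libraries were scaled by TMM in edgeR 4.0.16 (R 4.3.3). Folds have 95% intervals from the conditional binomial, exact by Clopper-Pearson (scipy 1.17.1). PCR copies are not told apart, so intervals cover counting error only. A comparison needed 20 counts in the higher library, and a count of 0 was set to 3. The script was tested on simulated data. Genes and lists were chosen with earlier results of these data known, and motifs with the sequences in view. Named were all members, and of each list those with the largest folds, those at 0 and some near equality; the latter were chosen after their values were seen, as were genes given for their known tie to a member. Genes like a member were sought for members with 100 counts or more, by Euclidean distance of centred log2 levels, leaving out predicted and Riken genes. Alternatives were DESeq2 1.42.0 size factors, total counts, a pan-epithelial scaling, other minimums and folds, RPKM ratios, and either column alone. Coordinates are mm9 counted from 1. Promoters are RefSeq windows of GRCm38.p6, 250 bases before and 50 after a start.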

Additional observations from a re-analysis of the deposited data

How the results depend on the processing

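All 193 recomputed folds of single members stayed within the 95% interval of the reported value, and none of the called ones reversed. Part of this was fixed beforehand, since other fold limits (19 folds each) and other minimums (19 and 3 folds) leave a single fold as it was. Folds from either column alone (19 each) had little room to leave the interval. The spread between columns was only 0.422 to 0.449 times the counting variance. Numbers of members 2-fold apart changed with the thresholds. With a minimum of 100 counts those with the higher level in the caecum went from 2 to 0 against the ileum and from 3 to 1 against the colon, and those with the higher level in the colon went from 2 to 0 in both comparisons, since only Muc13 has that many counts. A limit of 1.5-fold put 3 members above the caecum in the ileum in place of 0, and 4 above it in the colon in place of 2. A limit of 3-fold left 1 of the 2 above the ileum in the caecum, and 1 of the 2 above the caecum in the colon. Members above the caecum in the ileum numbered 1 with pan-epithelial scaling, which is Muc13, and 1 with a minimum of 1 count, which is Muc20 at 2 and 1 counts. Pan-epithelial scaling lowered the median of all genes by 0.15 (log2) in colon against ileum. Counts for the other lists differed by more than 1.5 times in 102 cases and by less in 888, most of them under other minimums and folds. Rounding ties up, added after seeing the data, moved no number of members by over 1.5 times. With column 1 alone Muc2 was no longer 2-fold apart in caecum against colon (log2 ratio of 0.71 in place of 1.16), which leaves 2 members above the colon in the caecum in place of 3. Tff1 reached 2.06-fold in caecum against ileum, which makes 3 members above the ileum in the caecum in place of 2. The level of Muc20 in the ileum was 0 RPKM in column 1 alone. No paired analysis was possible because each group has 1 sample. Depth limits Agr2, Muc2, Tff2 and Muc20 most, with at most 34 counts in any library.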
